A study of Mus musculus with 24 samples.

Results

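Ribosomes are built in the nucleolus. RNA polymerase I (Pol I) transcribes the ribosomal RNA precursor there, small nucleolar ribonucleoproteins (snoRNPs) methylate and pseudouridylate it, and separate sets of assembly factors fold, cut and package it into the small and the large subunit. Growing and dividing cells need this production line, and enlarged nucleoli are a classical feature of activated and malignant lymphocytes. The genes described here are the rows of the deposited gene table whose symbols start with Nop, Nol, Utp, Rrp or Gnl followed by a digit, the Pol I subunit genes Polr1a to Polr1e, and Fbl, Ncl, Npm1, Dkc1, Nolc1, Bop1, Wdr12, Pes1, Nip7 and Rrs1. They were chosen by name and not by a cut on any value, although earlier results of these data were known. The rule finds 50 of the 11140 genes in the table, and all 50 passed the filter on low counts. By role they comprise 5 Pol I subunits, 6 snoRNP proteins, 18 small subunit factors, 17 large subunit factors and 2 nucleolar chaperones. The other 2 genes, Gnl1 and Nol7, were not assigned to a role here. Levels of RNA, not of ribosomes or ribosomal RNA, were measured.

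The samples are purified splenic B lymphoma cells of C57BL/6 mice, all of which carry a Bcl6 transgene. Bcl6 is the transcriptional repressor that drives the germinal centre B cell programme. The T cell sufficient group (Bcl6Tg/+) holds 12 lymphomas, here S1 to S12, and the T cell deficient group (Bcl6Tg/+CD3Epsilon-/-) holds 11, here D1 to D11. The deficient mice also lack CD3 epsilon, a signalling chain that the T cell receptor needs, and so form no mature T cells. The sources used here do not give the promoter of the transgene, the age of the mice or any treatment. The labels place the libraries in a pair of batches, here called runs. Differences between runs are not traced here to sequencing or to any other step. Run 1 holds 7 sufficient and 5 deficient libraries, and run 2 holds 5 and 6. Lymphoma S1 was sequenced again in run 2; no separate column was used for that library, and whether the S1 column, taken as run 1, also holds it is unknown.

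Libraries held 7.58 to 30.6 M counts (M, mega), on average 15.7 ± 6.00 M in sufficient (SD, n = 12) and 20.6 ± 6.03 M in deficient lymphomas (SD, n = 11). The B cell markers were abundant in each library, with a summed level of 5186 to 10721 CPM (counts scaled to a common library total) in sufficient and 3735 to 8140 CPM in deficient libraries, and Cd79a, Cd79b and Cd22 were lower in the deficient group. Cd3e, the gene removed in the deficient mice, had a median of 0.874 CPM in sufficient and 1.82 CPM in deficient libraries, so it cannot check the labels in purified B cells. Of 8 measured T cell markers 1, Cd2, was lower in deficient lymphomas. Of 13 measured monocyte and macrophage markers 2, Lyz2 and Itgam, were lower, and their summed level spanned 233 to 3035 CPM in sufficient and 175 to 807 CPM in deficient libraries. A list of 20 cell division genes had 17 members higher in deficient lymphomas, with a median difference of 0.53 on the log2 scale and summed levels of 2661 to 6296 against 5975 to 9799 CPM. No gene of these lists was at 0 in every library. Libraries S5, S6, S9, S10 and S11 held both Xist and Y-linked transcripts above 5 CPM, and results are given with and without them. Nothing in the labels says more than that each lymphoma is a separate sample, so p-values measure the spread between these samples.

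Promoters are shown for members that passed the comparison of the groups, since those are the genes on which that comparison turns. RefSeq promoter entries on GRCm38.p6 (250 bases before to 50 after the start) were found for 40 of the 50 members and for 5 of the 9 that passed. For 4 of them the stretch upstream of the start that overlaps no annotated exon is printed 5′ to 3′ on the gene's strand. The fifth, the entry of Gnl3, lies mostly in exons of its neighbour Pbrm1. Its longest stretch outside exons, 88 bases from position -250 to -163, is not printed, although that of Utp18 is no longer. Capitals mark CACGTG, the E-box motif that Myc family factors bind.

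Utp18 (chr11:93885767-93885851, minus strand): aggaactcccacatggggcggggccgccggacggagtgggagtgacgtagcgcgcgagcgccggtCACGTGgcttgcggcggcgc

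Nop58 (chr1:59684756-59684970, plus strand): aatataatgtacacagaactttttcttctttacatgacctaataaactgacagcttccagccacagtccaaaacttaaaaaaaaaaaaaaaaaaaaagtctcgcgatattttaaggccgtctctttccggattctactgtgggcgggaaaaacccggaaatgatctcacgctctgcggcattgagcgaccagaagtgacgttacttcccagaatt

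Dkc1 (chrX:75095604-75095853, plus strand): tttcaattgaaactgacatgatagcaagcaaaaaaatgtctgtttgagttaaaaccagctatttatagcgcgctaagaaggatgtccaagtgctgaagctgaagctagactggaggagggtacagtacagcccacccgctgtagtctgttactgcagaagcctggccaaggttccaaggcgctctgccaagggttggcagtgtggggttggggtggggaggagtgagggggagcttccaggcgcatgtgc

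Nop10 (chr2:112261676-112261925, plus strand): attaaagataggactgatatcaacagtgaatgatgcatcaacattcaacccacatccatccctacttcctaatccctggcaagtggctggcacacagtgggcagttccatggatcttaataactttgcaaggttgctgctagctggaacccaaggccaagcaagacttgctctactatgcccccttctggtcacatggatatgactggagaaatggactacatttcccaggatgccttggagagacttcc

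Of these 4 genes only Utp18 has the E-box in its entry, at position -20. Its stretch is 85 bases long with 75.3% G or C, and the bases before it belong to an exon of Mbtd1 on the other strand. The Nop58 stretch has 40% G or C, Dkc1 52.0% and Nop10 47.2%. Over the whole entries, CACGTG, which reads the same on both strands, stood in 7 of 40 members (17.5%), which are Nol11, Nop2, Pes1, Rrp7a, Utp14b, Utp18 and Utp20. The same motif stood in 12.2% of the 9006 genes of the table with an entry. The motif CCGGAAG, a core bound by ETS factors, was searched on both strands and stood in 12 of 40 members (30.0%) against 21.8% of the table. Neither motif contains the other, and a match is a description of the sequence and not of binding.

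All 50 genes were expressed. Compared per length, as CPM over the kilobases of the principal transcript and averaged over the 23 libraries, the histone and ribosomal protein chaperone Npm1 was highest at 468 CPM per kilobase. Ncl, the abundant nucleolar RNA-binding protein nucleolin, came next at 186, before Nop58 at 158 and Polr1d at 151. The value of Ncl rests on an annotated transcript of 8202 bases and would be higher with a shorter one. At the other end stood Polr1e at 13.9, Utp23 at 13.1, Nol12 at 12.8 and Utp14b at 2.80 CPM per kilobase. Utp14b, a retrocopy of Utp14a that lies within the Acsl3 gene, shares 206 exon bases with it on the same strand, so reads cannot be assigned with certainty between them. A further 17 members overlap an exon on the opposite strand, by 5 bases (Nop56 with Idh3b) to 860 bases (Nop9 with Cideb), and the sources used here do not give whether the counting used strand. The Pol I subunits were not level with each other, since Polr1a, which carries the catalytic centre, and its partner Polr1b had 21.3 and 23.6 CPM per kilobase, against 151 for Polr1d and 66.8 for Polr1c, which are shared with RNA polymerase III.

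The groups were compared gene by gene with edgeR's quasi-likelihood test, with run as a term and p-values adjusted (Benjamini-Hochberg) over all 11020 genes tested. In T cell deficient lymphomas 8 members rose and 1 fell at an adjusted p under 0.05, while 41 did not pass. That is 18% of the members, against 22.2% of all genes tested. By direction, 16% of members rose against 10.6% of all genes, and 2% fell against 11.7%. The median difference over the members was 0.15 on the log2 scale against -0.01 over all genes, and 40 of 50 members (80%) had a higher fitted level in deficient lymphomas against 49.2% of all genes. Differences were small: no member passed 0.43 on the log2 scale in either direction, a 1.35-fold change. No member separated the groups completely, which 0.163% of all genes did. Scaling by library totals in place of TMM gave 12 members higher and none lower, with 23.9% of all genes called. At an unadjusted p under 0.05 there were 15 higher and 1 lower (30% and 2%), against 17.8% and 18.3% of all genes. The share of members that passed was thus near that of the table, and what differed from the table was the balance of directions, for which no test over the list was made. In bulk RNA, fewer cells of a type and less RNA per cell cannot be told apart.

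The members that passed fell in 3 of the roles. Of 6 snoRNP genes 2 rose and 1 fell, of 18 small subunit factors 3 rose, of 17 large subunit factors 3 rose, and none of the 5 Pol I subunits, the 2 chaperones or the 2 other genes passed. Medians of the fitted difference were 0.03 for Pol I, 0.13 for snoRNP proteins, 0.17 for small subunit factors, 0.12 for large subunit factors and 0.21 for the chaperones. The plot of both comparisons by role gives each gene with its error.

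**Figure D1:**
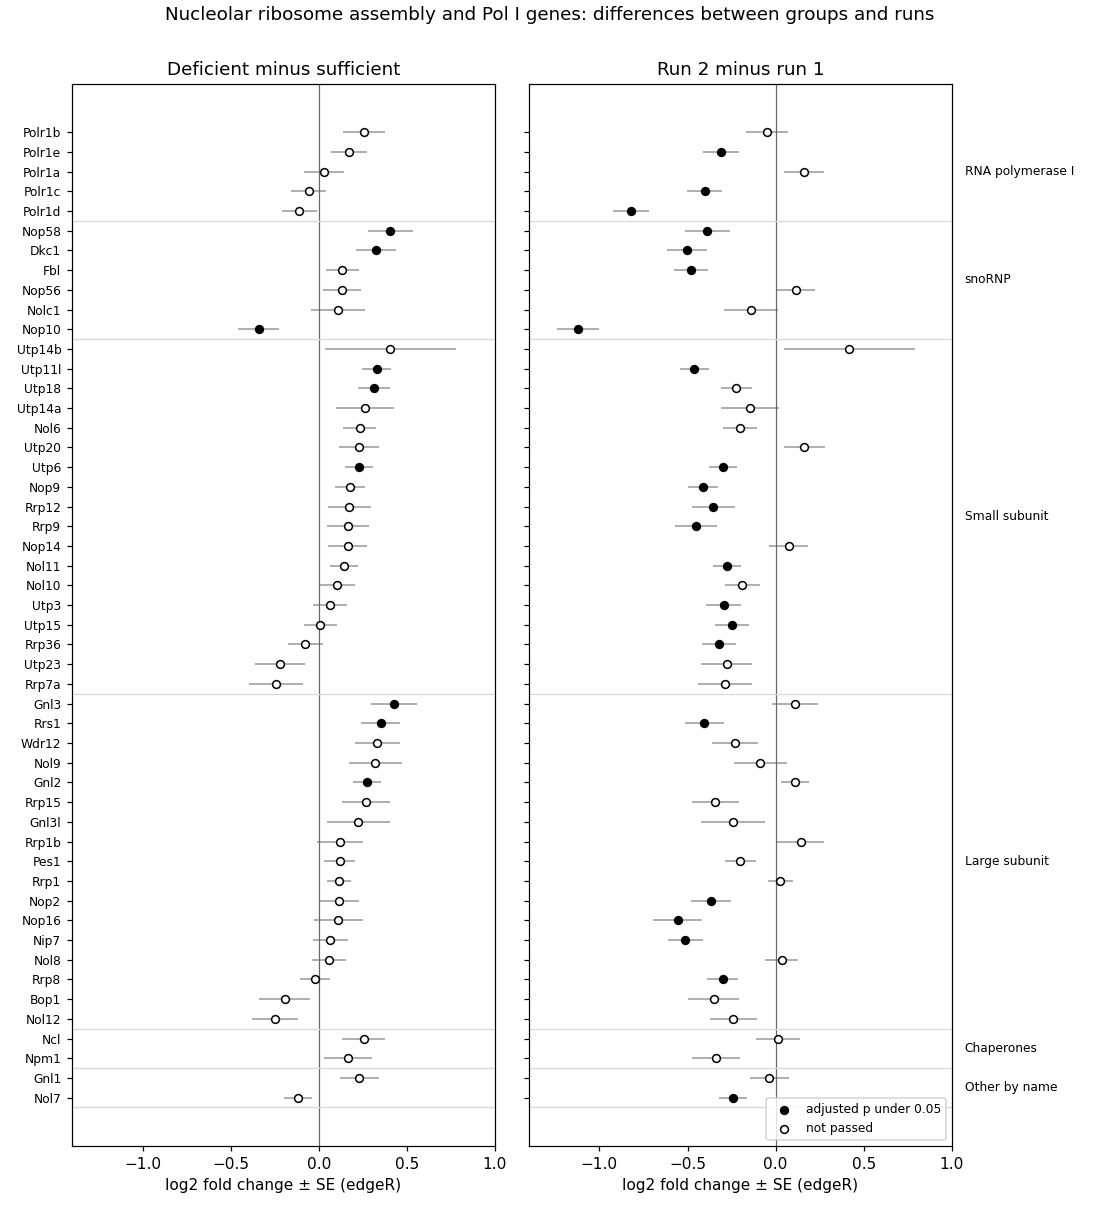
Fitted log2 difference of each of the 50 genes, with its standard error as a bar, between T cell deficient and sufficient lymphomas (left) and between run 2 and run 1 (right), grouped by role; filled points have an adjusted p under 0.05. On the left 8 filled points lie above 0 and 1, Nop10, below; on the right all 22 filled points lie below 0.

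Among the small subunit factors, Utp11l (annotated as Utp11), a component of the processome that assembles on the nascent precursor, had the smallest p of all members. It lies at chr4:124678160-124693600 on the minus strand of GRCm38, as a protein-coding gene. Its level ran from 37.5 CPM over a median of 49.7 to 65.7 CPM in sufficient lymphomas, and from 35.2 over 59.3 to 79.4 CPM in deficient lymphomas. The groups overlapped, with 4 of 11 deficient libraries above every sufficient one. The difference was 0.33 ± 0.08 (log2, SE; edgeR adjusted p = 0.00828). Utp18 (chr11:93859243-93885766, minus strand), whose promoter is printed above and whose protein belongs to the UtpB module of the processome, ran from 68.1 over 86.1 to 110.3 CPM in sufficient and from 78.6 over 102.6 to 137.0 CPM in deficient lymphomas. Again 4 of 11 deficient libraries lay above all sufficient ones, and the difference was 0.31 ± 0.09 (edgeR adjusted p = 0.0156). Utp6 (chr11:79932321-79962390, minus strand), of the same module, ran from 98.3 over 121.0 to 161.0 CPM against 112.4 over 149.8 to 186.9 CPM, with 1 deficient library above all sufficient ones. Its difference of 0.23 ± 0.08 (edgeR adjusted p = 0.0468) was the smallest that passed. The other 15 small subunit factors did not pass, with fitted differences from -0.24 (Rrp7a) to 0.41 (Utp14b, SE 0.37).

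In the large subunit pathway, the 3 genes that rose were a pair of GTPases and an assembly factor. Gnl3 (chr14:31012433-31019152, minus strand) encodes nucleostemin, a nucleolar GTPase known from stem and tumour cells. It ran from 78.8 over 98.8 to 120.0 CPM in sufficient and from 81.7 over 116.9 to 200.7 CPM in deficient lymphomas, and 5 of 11 deficient libraries (D3, D4, D5, D7 and D9) lay above all sufficient ones. Its difference, 0.43 ± 0.13 (edgeR adjusted p = 0.0228), was the largest of the 50. Gnl2 (chr4:125016585-125055380, plus strand), the GTPase that accompanies the large subunit precursor towards export, ran from 61.0 over 70.3 to 86.5 CPM against 67.2 over 85.5 to 109.6 CPM, with 4 deficient libraries above all sufficient ones. The difference was 0.28 ± 0.08 (edgeR adjusted p = 0.0166). Rrs1 (chr1:9545408-9547455, plus strand), which helps to place the small ribosomal RNA of the large subunit, ran from 65.3 over 85.5 to 118.9 CPM against 68.5 over 105.8 to 178.5 CPM and differed by 0.35 ± 0.11 (edgeR adjusted p = 0.0289). The members of the PeBoW complex, which matures the large subunit RNA, did not pass: Wdr12 had 56.4 ± 11.6 CPM in sufficient (SD, n = 12) and 69.4 ± 16.3 CPM in deficient lymphomas (SD, n = 11), Pes1 151.1 ± 23.4 and 161.1 ± 25.3 CPM, and Bop1 190.2 ± 26.7 and 164.1 ± 57.8 CPM. Their fitted differences were 0.33 ± 0.13, 0.12 ± 0.09 and -0.19 ± 0.14, with edgeR adjusted p-values of 0.0676, 0.339 and 0.347. The other 11 large subunit factors did not pass either, with fitted differences from -0.25 (Nol12) to 0.32 (Nol9).

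The snoRNP genes did not move as one group. Nop58 (chr1:59684971-59719044, plus strand), a core protein of the box C/D particles that guide methylation, ran from 171.2 over 237.9 to 306.3 CPM in sufficient and from 178.0 over 289.3 to 475.7 CPM in deficient lymphomas, with 4 deficient libraries above all sufficient ones. It differed by 0.41 ± 0.13 (edgeR adjusted p = 0.0276). Its partners did not pass: Nop56 had 165.5 ± 24.2 CPM (SD, n = 12) and 183.1 ± 37.2 CPM (SD, n = 11), and the methyltransferase gene Fbl 48.3 ± 8.79 and 51.3 ± 13.6 CPM, with differences of 0.13 ± 0.11 and 0.13 ± 0.10 (edgeR adjusted p = 0.392 and 0.322). In the box H/ACA particles, which guide pseudouridylation and also form part of telomerase, Dkc1 rose and Nop10 fell. Dkc1 (chrX:75095854-75109777, plus strand), the pseudouridine synthase dyskerin, ran from 128.3 over 187.3 to 256.5 CPM against 122.9 over 223.3 to 333.2 CPM and differed by 0.33 ± 0.11 (edgeR adjusted p = 0.0405). Nop10 (chr2:112261926-112263269, plus strand), a small core protein of the same particle, ran from 49.6 over 91.6 to 155.2 CPM in sufficient and from 34.0 over 52.8 to 131.7 CPM in deficient lymphomas. It was the single member of the 50 that fell, by 0.34 on the log2 scale (SE 0.12, edgeR adjusted p = 0.0409). The remaining core proteins of the particle, Nhp2 and Gar1, lie outside the naming rule and are named after their values were seen; they had differences of 0.20 ± 0.11 and 0.24 ± 0.15 and did not pass (edgeR adjusted p = 0.195 and 0.255). Nop10 has the shortest transcript of all members, 1109 bases, and genes in the shortest length class of the table (up to 1164 bases) had a median group difference of -0.09; the part of length in its difference was not tested.

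**Figure D2:**
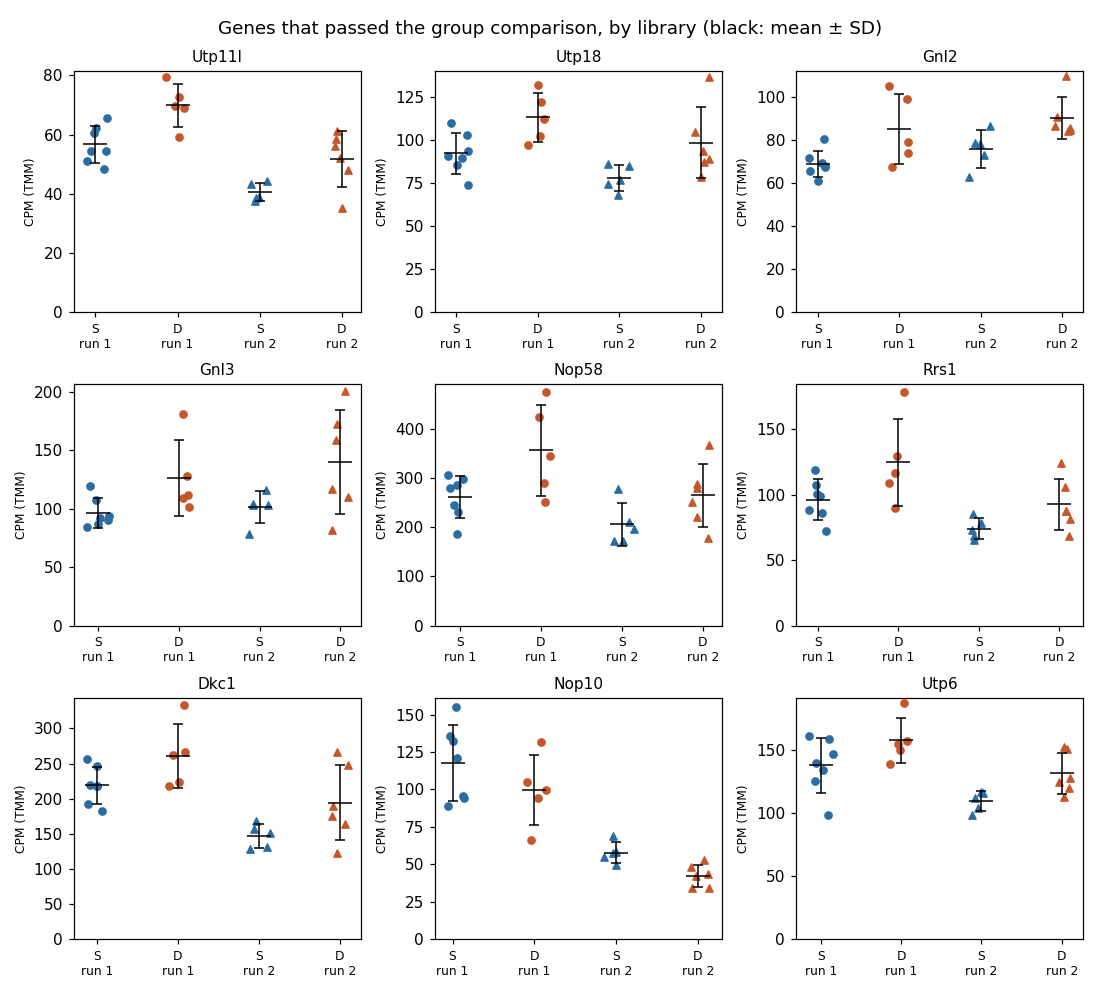
Level in CPM (TMM-scaled) of the 9 genes that passed the group comparison, 1 point per library, split by run (circles run 1, triangles run 2) and group (S sufficient, D deficient), with mean and SD in black. In both runs the deficient mean is above the sufficient mean for 8 genes and below it for Nop10, and the points of the groups overlap. The genes were picked by a fit over both runs, which favours a shared direction.

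The Pol I subunits and the chaperones did not pass the group comparison. Polr1a had 193.5 ± 47.0 CPM in sufficient (SD, n = 12) and 200.1 ± 18.4 CPM in deficient lymphomas (SD, n = 11), a difference of 0.03 ± 0.11 (edgeR adjusted p = 0.873). Polr1b had 86.6 ± 15.7 and 103.1 ± 22.6 CPM, a difference of 0.26 ± 0.12 (edgeR adjusted p = 0.124). For Ncl the values were 1392 ± 254 and 1663 ± 351 CPM, with a difference of 0.26 ± 0.12 (edgeR adjusted p = 0.138). Npm1 had 730.4 ± 174.1 and 801.9 ± 205.3 CPM, with a difference of 0.17 ± 0.13 (edgeR adjusted p = 0.388). A p that misses the threshold does not show equal levels, and for Ncl and Polr1b the fitted difference was over 2 times its standard error.

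How firmly each call held depended on single libraries. Utp11l, Utp18, Gnl2 and Gnl3 passed whichever of the 23 libraries was left out, with edgeR adjusted p-values up to 0.0496 for Gnl3. Nop58 and Rrs1 each lost the call when S10, D4, D5 or D7 was left out (highest adjusted p 0.0567 and 0.0628). Nop10 lost it without S2, S3, S4, S6, S8, S9, S10, S11, D2, D10 or D11 (differences from -0.40 to -0.29, adjusted p up to 0.0749). Dkc1 lost it without S1, S6, S8, S10, S11, S12, D2, D3, D4, D5 or D9 (adjusted p up to 0.0836). Utp6 lost it in 15 of the 23 cases, without S2, S4, S6, S7, S8, S10, S11, S12, D1, D2, D3, D4, D5, D7 or D9 (adjusted p up to 0.102). The count of members that rose was 4 without S10, D4 or D5 and 5 without D7. Fewer genes of the whole table passed there too: 18%, 17.7%, 18.2% and 20.4% in that order, against 22.2% with all libraries. With S5, S6, S9, S10 and S11, the 5 libraries of mixed Xist and Y-linked transcripts, left out, 5 members rose and none fell, with Utp11l and Utp18 the only ones of the 8 above that still passed. Without the 3 of them with Xist above 20 CPM (S9, S10 and S11), Utp11l alone passed. With the logarithm of the library total, which was higher in the deficient group, as a covariate, 4 rose (Utp11l, Utp18, Gnl2 and Dkc1) and none fell. Of all genes, 18.3% passed without the 5 libraries, 13.3% without the 3 and 15.8% with the covariate. A permutation test within runs (100000 relabellings, two-sided, adjusted over all genes) gave Gnl2 0.00928, Utp18 0.0106, Utp11l 0.0119, Utp6 0.0325, Rrs1 0.0337, Gnl3 0.0368, Nop58 0.0377 and Nop10 0.0419 as adjusted p, while Dkc1 missed with 0.0541. In the authors' deposited table, at their adjusted p under 0.05, 7 members were higher and 1 lower (16% against 22.8% of its genes), and Dkc1 had 0.0529.

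Within single runs no member passed. In run 1 alone (7 against 5) no gene at all passed in edgeR out of 11064 (0%), and at an unadjusted p under 0.05 there were 10 members higher and none lower, against 7.62% and 8.94% of genes. In run 2 alone (5 against 6) 12.3% of genes passed (5.69% higher, 6.61% lower) but no member, and at an unadjusted p under 0.05 there were 5 members higher and 1 lower, against 15.2% and 15.7% of genes (30.9% in all). Median differences over the members were 0.17 in run 1, with 40 of 50 positive, and 0.09 in run 2, with 38 of 50 positive. The 9 genes that passed over both runs kept their direction in each, for example Gnl3 with 0.38 ± 0.15 and 0.47 ± 0.22, Utp18 with 0.29 ± 0.12 and 0.34 ± 0.15, and Nop10 with -0.25 ± 0.18 and -0.44 ± 0.14 (log2, SE). These genes were picked by the fit over both runs, so a shared direction in each run is largely built in by that choice. The interaction of group and run passed for no member and no gene in edgeR (0%); at an unadjusted p under 0.05 it did so for 0 members against 6.56% of genes (3.39% higher, 3.17% lower), and limma-voom and DESeq2 also gave 0 members.

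The runs differed more than the groups did. With group as a term, 22 of the 50 members were lower in run 2 and none higher, at an edgeR adjusted p under 0.05. That is 44% of members, against 36.3% of all genes in either direction, 17.7% lower and 18.6% higher. The median over the members was -0.26 against 0.02 over all genes. By role, 3 of 5 Pol I subunits fell, 4 of 6 snoRNP genes, 9 of 18 small subunit factors, 5 of 17 large subunit factors, neither chaperone and 1 of the 2 others. The Pol I genes were Polr1d, Polr1c (-0.40 ± 0.10) and Polr1e (-0.31 ± 0.10), so both subunits shared with RNA polymerase III fell while Polr1a (0.16 ± 0.11) and Polr1b (-0.05 ± 0.12) did not pass. The snoRNP genes were Nop10, Dkc1 (-0.50 ± 0.11), Fbl and Nop58 (-0.39 ± 0.13), and Nop56 (0.12 ± 0.11) and Nolc1 (-0.14 ± 0.15) did not pass. The small subunit factors that fell did so by between 0.25 (Utp15) and 0.46 (Utp11l) on the log2 scale. The 5 large subunit factors were Nop16 (-0.56 ± 0.14), Nip7, Rrs1 (-0.40 ± 0.11), the RNA methyltransferase gene Nop2 (-0.37 ± 0.11) and Rrp8 (-0.30 ± 0.09). The gene without an assigned role was Nol7 (-0.24 ± 0.08). Npm1, with -0.34 ± 0.14, lay just beyond the threshold (edgeR adjusted p = 0.0557), and Ncl had 0.01 ± 0.12. Sufficient lymphomas alone gave 10 members lower and none higher (20% against 20.1% of genes in either direction, 10.2% lower and 9.97% higher), and deficient lymphomas alone 9 and none (18% against 19.1%, 10% and 9.04%).

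Nop10 differed most between runs: it ran from 66.4 over a median of 102.2 to 155.2 CPM in run 1 and from 34.0 over 49.6 to 69.2 CPM in run 2. Only the lowest library of run 1, D10, fell inside the range of run 2, and the difference was -1.12 ± 0.12 (log2, SE; edgeR adjusted p = 1.78e-07). Polr1d ran from 190.1 over 213.9 to 337.6 CPM in run 1 and from 103.5 over 124.5 to 171.6 CPM in run 2. All 11 libraries of run 2 lay below all 12 of run 1, which no other member showed. Of all genes, 4.83% separated the runs completely, counted in either direction. Its difference was -0.82 ± 0.10 (edgeR adjusted p = 1.34e-06). The next genes by p were Utp11l (-0.46 ± 0.08), Nip7, a factor for large subunit RNA processing (-0.51 ± 0.10), Fbl (-0.48 ± 0.10) and Nop9, an RNA-binding factor of the small subunit (-0.41 ± 0.09). These 6 genes passed with every library left out in turn. Utp11l is thus among the members with the smallest p in both comparisons, though not with the largest differences. It was higher in deficient lymphomas and lower in run 2, and without run as a term its group difference was 0.27 with an edgeR adjusted p of 0.151.

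The difference between runs varied with transcript length. Spearman's rho of principal transcript length with the run difference was 0.50 over the 50 members and 0.38 over 10966 genes with a length, given as a description across genes that share the same libraries. For the group difference rho was 0.04 and 0.09. In the shortest class (up to 1164 bases) the median run difference was -0.45, and Nop10 is the 1 member there. The next class (1165 to 2840 bases) had a median of -0.08 and holds 26 members with a median of -0.33, of which 14 fell. Between 2842 and 6168 bases the table's median was 0.13, while the 20 members there had a median of -0.24 and 7 fell. The 3 longest members by annotated transcript, Polr1a, Utp20 and Ncl, had a median of 0.16 against 0.37 for the longest class of genes. None of the 3 passed. Within each of these classes the members' median lay below that of the table. Division genes moved the same way, with 16 of 20 lower in run 2 and a median of -0.56. The parts of length and of division genes in the run difference were not tested.

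**Figure D3:**
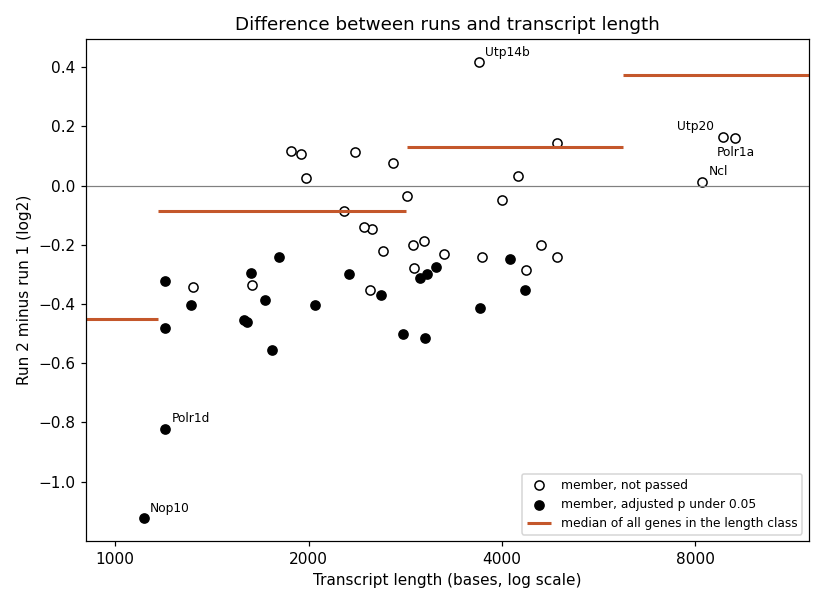
Run 2 minus run 1 difference (log2) of the 50 genes against the length of the principal transcript in bases (log axis); filled points have an adjusted p under 0.05 and orange lines are the median of all genes in the 4 length classes, from -0.45 to 0.37. Nop10 and Polr1d lie lowest among the shortest transcripts, and most members lie below the line of their class.

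Beyond group and run, members tended to be high or low together in a library. D7 had the highest level of all 23 libraries for 20 of the 50 genes and D5 for 8, whereas D6 had the lowest for 16 and S7 for 9. Against the mean of its own group and run, D5 was above for 46 members (median deviation 0.32 on the log2 scale), D7 for 44 (0.26), D6 for 5 (-0.30) and D10 for 4 (-0.14). D7 also had the lowest summed B cell marker level (3735 CPM) and the highest neutrophil marker level (145.6 CPM, against a deficient median of 6.42), with division genes at 8041 CPM, near the deficient median of 7921. D6 had the highest B cell marker level of the deficient group (8140 CPM) and division genes at 6017 CPM. The part of these features in the library pattern was not tested. Without D6 and D7 together, 7 members rose and 1 fell, with 21.5% of all genes called. The residual SD after group and run was 0.27 at the median over members (log2), from 0.15 for Rrp1 to 0.99 for Utp14b, against 0.32 for genes in the same range of expression.

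**Figure D4:**
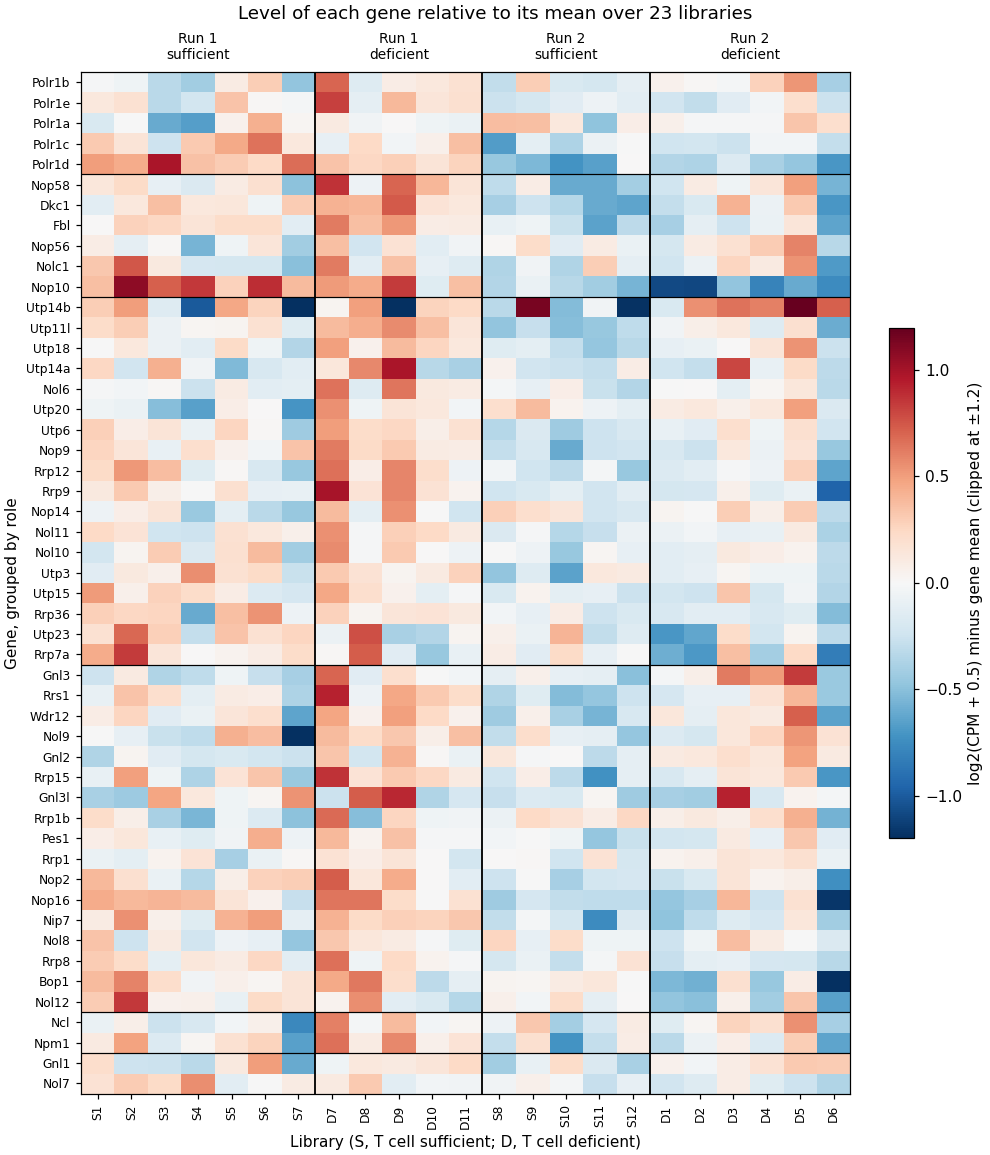
Level of each of the 50 genes in each library as log2(CPM + 0.5) minus the gene's mean over the 23 libraries, clipped at 1.2 in each direction, with genes grouped by role and libraries by run and group. The columns of D7 and D5 are mostly red and that of D6 mostly blue, and Nop10 and Polr1d change colour between the runs.

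**Figure D5:**
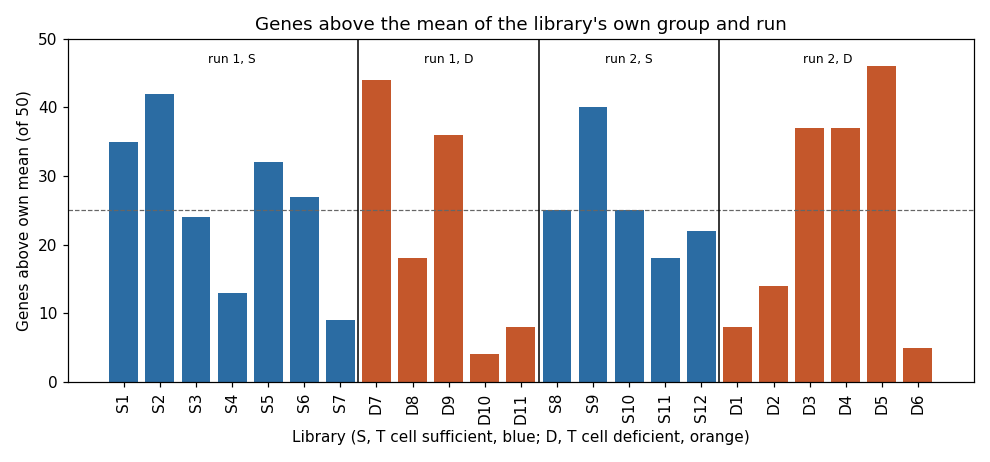
Number of the 50 genes above the mean of the library's own group and run, 1 bar per library, with a dashed line at 25. Bars reach 46 for D5 and 44 for D7 and fall to 5 for D6 and 4 for D10.

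RNA levels of genes whose proteins work together were compared over the 23 libraries after the mean of each group in each run was taken off. This was done for 9 pairs, with permutation p-values (two-sided, 100000 relabellings within group and run) adjusted over the 9. The libraries share their depth and their other transcripts, so these are correlations between genes measured in the same libraries. Members tended to be high or low together in a library, and other pairs of members were not compared. The values therefore do not show that partners are tied more closely than other members. The chaperones Ncl and Npm1 rose and fell most closely together, with Pearson's r = 0.96 and Spearman's rho = 0.96 (permutation p = 1e-05 for each, the smallest that this number of relabellings can give, adjusted p = 9.0e-05). Without the 2 libraries farthest from the median of Ncl (D5 and S7) r was 0.95, and it was 0.97 in run 1 and 0.96 in run 2. Nop56 and Nop58 had r = 0.83 and rho = 0.80 (permutation p = 2.0e-05 and 4.0e-05, adjusted 9.0e-05 and 0.00018), with r = 0.77 without D5 and D6 and 0.80 and 0.87 within the runs. Fbl with Nop58 had r = 0.79 and rho = 0.81 (permutation p = 0.00023 and 0.00012, adjusted 0.00069 and 0.00036), with 0.75 without S11 and D6 and 0.66 and 0.91 within the runs. Fbl with Nop56 had r = 0.64 and rho = 0.64 (permutation p = 0.00265 and 0.00281, adjusted 0.00596 and 0.00506), with 0.67 without S11 and D6 and 0.53 and 0.74 within the runs.

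The PeBoW pairs ranged from r = 0.43 to 0.63, and differences between correlations were not tested. Pes1 and Wdr12 had r = 0.63 and rho = 0.67 (permutation p = 0.00396 and 0.00186, adjusted 0.00713 and 0.00418), with 0.51 without D5 and S6 and 0.64 and 0.63 within the runs. Bop1 and Wdr12 had r = 0.51 but rho = 0.32 (permutation p = 0.044 and 0.168, adjusted 0.0495 and 0.168); r was 0.34 without D3 and D6, 0.17 in run 1 and 0.73 in run 2, so this relation rests on those libraries and on run 2. Pes1 and Bop1 had r = 0.43 and rho = 0.44 (permutation p = 0.0657 and 0.0579, adjusted 0.0657 and 0.0745), 0.46 without D5 and S6, and 0.30 and 0.53 within the runs. The H/ACA pair Dkc1 and Nop10, which went in opposite directions between the groups, had r = 0.48 and rho = 0.53 within groups and runs (permutation p = 0.0255 and 0.0166, adjusted 0.0351 and 0.0249), with 0.55 without D3 and D6 and 0.42 and 0.63 in the separate runs. The catalytic Pol I subunits Polr1a and Polr1b had r = 0.46 and rho = 0.33 (permutation p = 0.0273 and 0.143, adjusted 0.0351 and 0.161), with 0.37 without S6 and S11 and 0.60 and 0.26 within the runs.

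Among ribosome assembly genes that the naming rule does not take, the share that rose in deficient lymphomas was that of the table. Of 116 genes listed as such and tested, 12 rose (10.3%, against 10.6% of all genes), none fell (against 11.7%) and 104 did not pass. The lists also hold Myc and Mpp6, which are not assembly factors, and neither passed the group comparison. Their median was 0.13 against -0.01 over all genes, and 89 of 116 (76.7%) were positive against 49.2%. Of 36 large subunit partners 5 rose: Pelp1, a scaffold of the complex that processes large subunit RNA, by 0.39 ± 0.10 (log2, SE; edgeR adjusted p = 0.0065), the nucleolar zinc finger gene Lyar by 0.50 ± 0.15 (0.0223), the helicase gene Ddx56 by 0.25 ± 0.09 (0.0391), and Ddx27 and Eif6, named here after their values were seen. Of 34 small subunit partners 3 rose, which were Noc4l (0.29 ± 0.09), the helicase gene Ddx10 (0.27 ± 0.08) and Pno1 (0.33 ± 0.11). Of 12 snoRNP partners 2 rose, both tied to the H/ACA particles: the assembly factor Naf1 went from 39.6 ± 8.89 CPM (SD, n = 12) to 58.0 ± 12.9 CPM (SD, n = 11), a difference of 0.55 ± 0.14 (edgeR adjusted p = 0.0092), and Wrap53, which guides them to Cajal bodies, differed by 0.37 ± 0.11 (0.0256). Of 16 genes listed as RNA decay and processing enzymes, Mpp6 among them, 2 exosome genes rose, Dis3 by 0.44 ± 0.12 (0.0144) and Exosc7 by 0.32 ± 0.10 (0.0242). None of 18 genes listed as Pol I partners, Myc among them, passed, and the nearest, the shared subunit gene Polr2h, had 0.27 ± 0.10 (0.0648). Between runs 50 of the 116 fell (43.1%, against 17.7% of all genes) and 9 rose (7.76%, against 18.6%), with a median of -0.22 against 0.02. The 17 of 20 division genes that were higher in the same libraries are given above, and their part in these differences was not tested.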

How the data were processed

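RNA was measured by sequencing of TruSeq libraries, per the labels' protocols. The authors deposited raw counts of 11140 genes in 23 libraries and the same values as CPM (scaled to each library's total), with log2 fold changes and p-values of their own comparison. The submitters' processing notes name the builds mm10 and GRCm38 and limma. Aligner, counter and strand setting: not given in the sources used here. Listed genes exceed 1 CPM in at least 7 libraries. The column of S4 was matched to its sample by number, and the deepest column, S1, may hold 1 or both of its libraries.

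The deposited counts were tested unchanged in edgeR 4.0.16 (R 4.3.3) with filterByExpr by group (120 genes removed, 11020 left), TMM scaling, robust quasi-likelihood fit with run and group. CPM in the text are TMM-scaled, and log2 CPM use a prior count of 2. The standard error is the log2 fold change over the square root of F. Alternatives were limma-voom (limma 3.58.1), DESeq2 1.42.0, other scalings, filters, thresholds, covariates and libraries left out. Total counts were 7.58 to 30.6 M, so 3 counts are worth 0.0980 to 0.396 CPM (counting error only). The code was tested on simulated counts. No pair of libraries in a group differed by as little as sampling noise. Transcript lengths (principal transcripts) and positions come from GENCODE M21 on GRCm38, which holds all 50 members, 1 through an older symbol.

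Members, lists and tests were chosen with earlier results of these data known. Named members are those that passed the group comparison, the 6 with the smallest p between runs and 12 set by name; other members named with values, for example where 5 or fewer of a role changed, were chosen after their values were seen. Of genes outside the naming rule, up to 3 per list with the smallest p are named, and also Ddx27, Eif6, Nhp2 and Gar1, chosen after their values were seen. Marker lists without a count in the report are plasma cell (1 of 6 lower), erythroid (1 of 7 higher), NK (1 of 4 higher), stroma (1 of 3 lower) and neutrophil (0 of 4).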

Additional observations from a re-analysis of the deposited data

Results flagged for a closer look

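Of 84 sets of libraries (21 named members in each group of each run), 3 held a library far from its neighbours by Dixon's ratio at the 95% level, where chance flags about 1 in 20. Gnl2 had 109.6 CPM in D5, with the nearest of the other deficient run 2 libraries at 90.4 CPM. Nop9 had 67.9 CPM in S10, below the nearest sufficient run 2 library at 84.8 CPM. Polr1b had 113.3 CPM in S9, above the nearest at 85.9 CPM.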

How the results depend on the processing

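Against 8 members higher and 1 lower in deficient lymphomas, the counts were 12 and 0 with library totals only, 2 and 0 without run as a term, 4 and 0 with the log2 library total as a covariate, 0 and 0 in run 1 alone or run 2 alone, and 1 and 0 at an adjusted p under 0.01. Without the 5 libraries holding Xist and Y-linked transcripts they were 5 and 0, and without the 3 with Xist above 20 CPM, a choice made after seeing the data, 1 and 0. RLE, upper quartile scaling, both other filters, an adjusted p under 0.10, limma-voom and DESeq2 gave 7 to 10 higher and 1 lower. Leaving out 1 library at a time gave 4 to 10 higher and 0 to 1 lower. Against 22 members lower in run 2, 10 were lower in sufficient and 9 in deficient libraries alone, 14 at an adjusted p under 0.01, and 21 to 29 with 1 library left out, with 0 higher throughout. No named value changed sign past the threshold. Over all genes the group comparison gave 2448 calls, 1470 without the 3 libraries, 1359 in run 2 alone, 0 in run 1 alone and 1027 at an adjusted p under 0.01. The share of all genes called was 22.2% in the main fit, 23.9% with library totals only and 15.9% without run as a term. It was 15.8% with the covariate, 18.3% without the 5 libraries and 13.3% without the 3. With 1 library left out it was 17.7% to 25.4% between groups and 33.1% to 37.5% between runs. The causes were not tested, other than that single runs and libraries left out hold fewer samples.

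Replicate numbers are shared between the groups, and no label says that they pair the samples. Deviations of same-numbered libraries correlated from -0.28 to 0.29, with 6 of 11 pairs over 0.1. Differently numbered pairs were not compared, so these values cannot decide whether the samples are paired. With the replicate block, 2 members were higher and 0 lower between groups and 12 lower between runs. Of all genes, 16.6% passed between groups and 28.2% between runs in that fit.

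The data limit the small differences seen here: run and depth both differ between libraries, and strand and counting rules are unknown for overlapping genes.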
